A study of Ovis aries with 2 samples.

Results

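The cells described here were mesenchymal cells of sheep embryos at embryonic day 16 (E16) that expressed the transcription factors PRRX1 and TWIST1 and in which no count of 8 other genes was found. They were selected on their own counts in single-cell RNA libraries of Ujumqin and Hulunbuir sheep. A cell was a member when it had at least 1 unique molecular identifier (UMI, 1 counted RNA molecule) of PRRX1 and at least 1 of TWIST1, and 0 UMIs of TBX4, HOXA13, PITX1, GATA4, TBX5, MEOX1, CDH5 and PECAM1. The barcodes kept had 200 genes or more and fewer than 10% of their UMIs on mitochondrial genes, and of these 24137 cells 245 were members. They were 31 of 14554 cells in Ujumqin (0.213%, exact binomial 95% interval 0.145 to 0.302%) and 214 of 9583 cells in Hulunbuir (2.23%, 1.95 to 2.55%).

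Embryos of each breed were pooled after dissociation and gave 1 library each, so breeds are compared without replicates, no test was run and no p-value is given. Ujumqin is the fat, long-tailed breed and served as the control, and Hulunbuir is the short-tailed breed and served as the experimental group. Ewes of both breeds were 24 months old and were synchronised with progesterone sponges and PMSG, their embryos were taken on day 16, tissue outside the embryo was removed with forceps, and red blood cells were lysed. The Ujumqin library held 17059 barcodes and 212933364 UMIs, and the Hulunbuir library held 10709 barcodes and 131385353 UMIs. Of 61 barcodes present in both libraries, 0 belonged to a member in both. Levels of genes are given in CPM, the count of a gene for every 1000000 UMIs that a set of cells held in all, and all 95% intervals (exact Poisson for levels, exact conditional binomial for folds, exact binomial for shares) cover counting error only.

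PRRX1 is a homeodomain factor of lateral plate, limb and craniofacial mesenchyme, and TWIST1 is a basic helix-loop-helix factor that keeps mesenchymal cells in an undifferentiated, migratory state. Early mesenchyme is loose tissue whose cells lie in a matrix of collagens and proteoglycans that they secrete themselves. The allantois is an extraembryonic bud of posterior mesoderm that is known for TBX4, PITX1 and posterior HOX genes. GATA4 and TBX5 mark heart-forming mesoderm, MEOX1 marks somites, and CDH5 and PECAM1 mark endothelium.

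The 8 excluded genes removed most of the PRRX1 TWIST1 cells in both libraries. At least 1 UMI of both factors was found in 131 Ujumqin cells (0.900% of kept cells) and in 883 Hulunbuir cells (9.21%), and the members were 23.7% and 24.2% of these. The hindlimb and allantois gene PITX1 excluded most, with a UMI in 72 Ujumqin and 412 Hulunbuir cells. TBX4 was counted in 47 and 284 cells and HOXA13 in 30 and 268. GATA4 was counted in 24 and 88 cells and TBX5 in 14 and 60, while MEOX1 (1 and 8), CDH5 (0 and 2) and PECAM1 (2 and 19) were rare. In the text that follows, the cells with a UMI of TBX4, HOXA13 or PITX1, 91 in Ujumqin and 633 in Hulunbuir, are called the allantois-gene cells.

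Many members lay just inside the limit. Of the Hulunbuir members, 97 of 214 had just 1 UMI of PRRX1 and 1 of TWIST1, and of the Ujumqin members 22 of 31. No Ujumqin member had more than 3 UMIs of PRRX1 or 3 of TWIST1, and the highest Hulunbuir counts were 4 and 7. Just outside the limit, 162 Hulunbuir and 21 Ujumqin cells were excluded by PITX1 alone, 78 and 5 by TBX4 alone and 63 and 5 by HOXA13 alone. A further 735 Hulunbuir and 172 Ujumqin cells had PRRX1 without TWIST1, and 1834 and 874 had TWIST1 without PRRX1.

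The share of members was higher among shallower cells. In Hulunbuir, members were 14 of the 24 PRRX1 TWIST1 cells under 5000 UMIs (58.3%), 55 of the 121 in the next range up to 10000 UMIs (45.5%), 109 of 388 up to 20000 (28.1%), 35 of 311 up to 40000 (11.3%) and 1 of 39 above that (2.56%). In Ujumqin, all 6 of the cells under 5000 UMIs were members, but 3 of the 60 cells above 40000 (5%, interval 1.04 to 13.9%). The members were also shallower than the allantois-gene cells, with a median of 22743 UMIs against 41841 in Ujumqin and 13164.5 against 19086 in Hulunbuir. Missed UMIs and absent expression of the 8 genes cannot be told apart in these cells, and values at 5000 to 20000 UMIs are given beside the main comparisons.

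**Figure D1:**
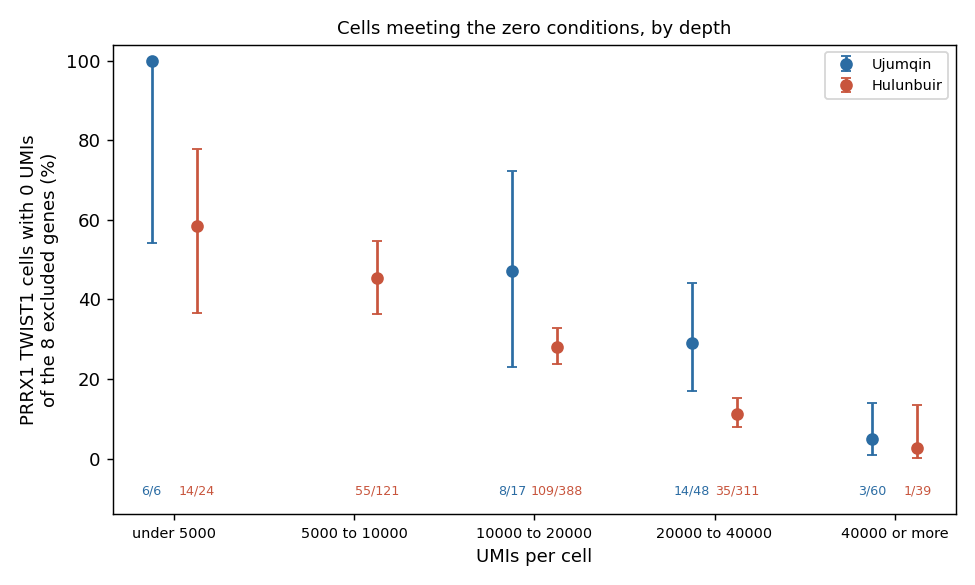
Share of PRRX1 TWIST1 cells that were members (0 UMIs of the 8 excluded genes), in percent, by the number of UMIs in the cell, for each library, with exact binomial 95% intervals. In Hulunbuir the share was 58.3% in the shallowest cells and 2.56% in the deepest.

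A single cell carried much of the Ujumqin signal. It had 169758 UMIs and 5262 genes, where the next deepest Ujumqin member had 51609 UMIs, and it held 20.8% of all UMIs of the 31 Ujumqin members. It held 1816 of their 2695 UMIs of decorin (DCN), 997 of 2053 of COL1A1, 1931 of 2600 of keratin 19 (KRT19), 101 of 184 of pleiotrophin (PTN) and 32 of 53 of periostin (POSTN). Whether it was 1 cell or several in a droplet was not tested, and values without it are given beside each result that it moves. Hulunbuir members ran from 699 to 43834 UMIs with no such cell, although 1 of them held 236 of the 1169 UMIs of PTN.

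The label of mesenchyme was checked against marker genes that the rule did not use. COL1A1, the chain of type I collagen, was counted in 26 of 31 Ujumqin members and in 160 of 214 Hulunbuir members, at 2513 CPM (interval 2405 to 2624) and 528 CPM (502 to 554). COL1A2 was at 1618 and 419 CPM, COL3A1 at 1093 and 419 CPM, and the intermediate filament gene VIM at 3638 and 1335 CPM, so that the fibroblast-type collagens and vimentin were abundant in members of both breeds. The general mesenchyme list summed to 6608 CPM in Ujumqin members and 3053 CPM in the other kept Ujumqin cells, with 1455 of the 5399 member UMIs in 1 cell. In Hulunbuir it summed to 2456 CPM in members and 2898 CPM in the other kept cells, so this sum did not set Hulunbuir members apart. Erythroid cells, with a UMI of at least 3 of 8 erythroid genes, were 5108 of 14554 kept cells in Ujumqin and 3 in Hulunbuir. In Ujumqin they held 114411398 of the 209576780 UMIs of kept cells and were at 529 CPM on this list. Against the other kept cells COL1A1 had log2 folds of 2.05 in Ujumqin and 0.40 in Hulunbuir. The part of erythroid cells in the Ujumqin values was not tested. PDGFRA, the PDGF receptor of early mesenchyme and the remaining marker, was sparse. It was counted in 4 Ujumqin members, at 4.90 CPM (1.33 to 12.5), and in 32 Hulunbuir members, at 11.5 CPM (8.03 to 16.0). After each cell was thinned at random to 1000 UMIs, in a single draw, COL1A1 was found in 17 of 30 Ujumqin members (56.7%, 83.9% before thinning) and in 60 of 213 Hulunbuir members (28.2%, 74.8% before thinning). In epithelial cells, taken as cells with a UMI of both EPCAM and CDH1, it was found in 1 of 31 Ujumqin cells (3.23%) and in 0 of 17 Hulunbuir cells. PDGFRA was found after thinning in 0 of 30 and in 4 of 213 members (1.88%), which is too few to read as expression at that depth.

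Markers of other cell types were taken as whole lists, and some of them were counted in most members. Of the defining epithelial genes, CDH1, FOXA1, FOXA2, GRHL2 and ESRP1 had 0 UMIs in members of both breeds and EPCAM was at 2.45 CPM in Ujumqin and 8.57 CPM in Hulunbuir. The simple-epithelium keratins were abundant all the same, KRT18 at 1829 and 4085 CPM and KRT19 at 3182 and 3264 CPM, where the Ujumqin levels were 1100 and 1034 CPM without the deepest member. The 11 genes of the epithelial list summed to 5190 CPM in Ujumqin and 7678 CPM in Hulunbuir members, beside 5200 and 9577 CPM in the cells with EPCAM and CDH1 and 1397 and 5588 CPM in the other kept cells. The keratins made up nearly all of these sums in members, and the deepest Ujumqin member held 2806 of the 4240 UMIs behind the Ujumqin sum.

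The neural list summed to 201 CPM in Ujumqin members (23 of 31 cells) and 337 CPM in Hulunbuir members (187 of 214 cells), against 88.0 and 405 CPM in the other kept cells, with 6 of its 10 genes at 0 in both and 157 and 987 of its UMIs from NES, an intermediate filament gene of neural progenitors and other immature cells. The head mesenchyme and neural crest list summed to 91.8 CPM (19 of 31 cells) and 129 CPM (101 of 214 cells), against 89.4 and 467 CPM in the other kept cells. Of its 23 genes 19 were at 0 in Ujumqin and 14 in Hulunbuir members, SOX10, FOXD3, TFAP2A, TFAP2B, DLX1, DLX2, DLX5 and DLX6 among them in both, and most of its UMIs were of the retinoic acid binding gene CRABP1 (51 and 323) and the ETS factor gene ETS1 (22 and 49). The somite and sclerotome list summed to 33.0 CPM (12 of 31 cells) and 34.9 CPM (74 of 214 cells), against 13.1 and 118 CPM in the other kept cells. Of its 22 genes 17 and 14 were at 0, PAX1, PAX9, TCF15, PAX7, MYF5 and MYOD1 among them, and SOX9, a factor of cartilage precursors and other tissues, had 18 and 48 UMIs. The smooth muscle and pericyte list was at 246 CPM in Ujumqin members (19 of 31 cells) and 110 CPM in Hulunbuir members (119 of 214 cells), above the 108 and 85.8 CPM of the other kept cells. The endothelial list was at 13.5 and 10.2 CPM, against 35.5 and 71.0 CPM in the other kept cells, but it holds CDH5 and PECAM1, which the rule set at 0 in members. The cardiomyocyte list was at 79.6 and 87.0 CPM, against 63.2 and 118 CPM.

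The summed level of the erythroid list was 45.3 CPM in Ujumqin and 2.31 CPM in Hulunbuir members, against 1061 CPM in the other kept Ujumqin cells, and AHSP (18 and 0 UMIs) and ALAS2 (10 and 0 UMIs) were counted only in Ujumqin members. Of the 37 UMIs of this list in Ujumqin members, 28 were in 1 cell. Liver-type plasma protein genes summed to 449 and 66.5 CPM, against 6057 and 267 CPM in the other kept cells, and 1 Ujumqin member held 186 of the 367 UMIs behind the Ujumqin sum. The part of these lists in the differences between the breeds was not tested.

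Members were not free of posterior genes that the rule leaves out. HOXA11, a posterior HOX gene of limb and allantois, was counted in 6 of 31 Ujumqin members at 9.79 CPM (4.23 to 19.3) and in 79 of 214 Hulunbuir members at 41.8 CPM (34.9 to 49.8). HOXC12, another posterior HOX gene, was counted in 4 and 24 members at 9.79 and 10.9 CPM. At least 1 of these genes was found in 8 of 31 Ujumqin and 90 of 214 Hulunbuir members. The label of cells without allantois genes therefore holds for the genes of the rule and not for the wider group, and the cells are named here by their rule.

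**Figure D2:**
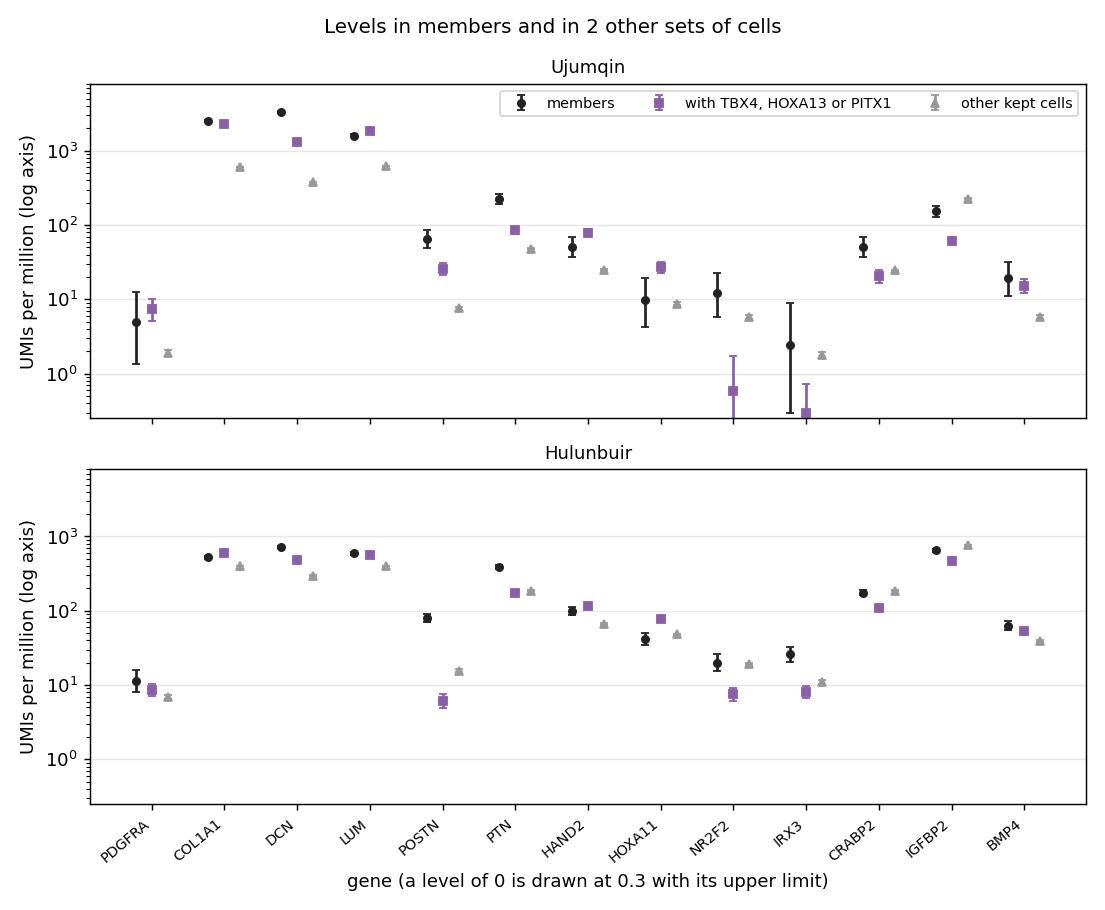
Levels (CPM, log axis) of marker and pathway genes in the members, in the allantois-gene cells (those with TBX4, HOXA13 or PITX1) and in the other kept cells of each library, with exact Poisson 95% intervals and a level of 0 drawn near the foot of the axis. COL1A1 was at 2513 CPM in Ujumqin and 528 CPM in Hulunbuir members.

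The members were first set against the allantois-gene cells, the nearest cells in the data, to see what besides the 8 genes set them apart. A gene entered this comparison, and each comparison below, with a symbol and at least 50 UMIs over all members, and the 10 genes of the rule were left out, which left 3296 genes. Of these, 10 (0.303%) were at least 2-fold higher in the members of both libraries and 0 (0%) were at least 2-fold lower. In Ujumqin alone the same limit was passed by 78 genes higher and 93 lower of 3293 genes, and in Hulunbuir alone by 14 higher and 1 lower of 3296. The members and the allantois-gene cells were close across all genes, with a median log2 fold of -0.10 in Ujumqin and -0.05 in Hulunbuir. Since both groups were chosen by counts in the same cells, these values are a description and not a test.

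The 10 genes were the matrix genes POSTN and PTN, the nuclear receptors NR2F1 and NR2F2, the WNT receptor FZD2, the WNT-binding inhibitor SFRP1, the slow-fibre and foetal heart troponin TNNI1, and ANGPT1, CCDC68 and SVEP1, of which the last 3 were named after their values were seen. POSTN, a matrix protein of mesenchyme, valves and bone membranes, was at 80.1 CPM (70.3 to 90.8) in 37 of 214 Hulunbuir members and at 6.19 CPM (4.93 to 7.67) in the allantois-gene cells, a log2 fold of 3.69. In Ujumqin it was at 64.9 CPM (48.6 to 84.9) in 11 of 31 members and at 25.7 CPM (21.5 to 30.5), a log2 fold of 1.34 that was 0.34 without the deepest member. POSTN was thus far higher in Hulunbuir members, and its difference in Ujumqin rested on 1 cell. After thinning to 1000 UMIs, POSTN was found in 3.29% of Hulunbuir members and 1.42% of the allantois-gene cells but also in 11.8% of the 17 epithelial cells, taken from 2 cells with an interval of 1.46 to 36.4%, so that the shares of members and epithelial cells in Hulunbuir were within counting error of each other. In Ujumqin it was found in 3 of 30 members (10%, interval 2.11 to 26.5%), in 2.20% of the allantois-gene cells and in 3.23% of the epithelial cells, within counting error of each other. These epithelial cells were few and not free of POSTN, since 3 of the 17 in Hulunbuir held 153 UMIs of it, 105 of them in 1 cell.

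PTN, a heparin-binding growth factor, was at 385 CPM (363 to 408) in Hulunbuir members and 171 CPM (164 to 178) in the allantois-gene cells, and at 225 CPM (194 to 260) and 84.5 CPM (76.7 to 92.9) in Ujumqin. Its log2 folds of 1.17 and 1.41 became 0.56 in Hulunbuir cells of 5000 to 20000 UMIs and 0.60 in Ujumqin without the deepest member. DCN, a collagen-binding proteoglycan, had log2 folds of 0.58 in Hulunbuir and 1.34 in Ujumqin, of which 0.06 was left without that cell. PTN was thus higher in members of both libraries but by under 2-fold in these restricted sets of cells, whereas the difference of DCN in Ujumqin without that cell was within counting error (interval -0.04 to 0.17). The Hulunbuir member with most UMIs of PTN, described above, was kept in, and no Hulunbuir fold of PTN without it is given.

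The transcription factors and WNT genes rested on fewer UMIs. NR2F2, an orphan nuclear receptor of venous, atrial and mesenchymal cells, was at 20.1 CPM in Hulunbuir members (28 of 214 cells) and 7.60 CPM in the allantois-gene cells, and at 12.2 CPM (10 UMIs in 4 cells) and 0.592 CPM (3 UMIs) in Ujumqin. Its log2 fold was 1.40 in Hulunbuir, 1.35 at 5000 to 20000 UMIs, and 4.37 in Ujumqin, 4.38 without the deepest member. The related NR2F1 had log2 folds of 2.87 and 1.48, with 33 UMIs in 13 Hulunbuir members and 22 UMIs in 5 Ujumqin members, and 1.26 in Ujumqin without the deepest member, where 15 UMIs were left and the gene fell under the minimum of 50 UMIs. FZD2 had log2 folds of 1.15 in Hulunbuir and 2.80 in Ujumqin, where 7 of 31 members held 28 UMIs. SFRP1 had 1.95 and 2.99, and TNNI1 had 2.99 and 3.63, from 79 UMIs in 28 Hulunbuir members and 8 UMIs in 3 Ujumqin members. Without the deepest Ujumqin member, FZD2, NR2F2, SFRP1 and TNNI1 stayed past 2-fold in both libraries, and POSTN, PTN and NR2F1 were no longer among the genes called. At 5000 to 20000 UMIs the Hulunbuir log2 folds were 3.40 for NR2F1, 2.13 for SFRP1, 2.76 for TNNI1, 1.15 for FZD2 and 2.31 for POSTN, but FZD2 was the 1 gene of the 10 that was still called in both libraries. Of the other cardiomyocyte genes, TNNT2, MYH6, MYL7 and NKX2-5 had 3 UMIs each in Hulunbuir members and 0 in Ujumqin members, and NPPA had 0 in both. TNNI1 did not stand alone, however, since the whole list of 10 genes held 264 UMIs in Hulunbuir and 65 in Ujumqin members. MYL4, another gene of this list, had 99 UMIs over the members of both libraries.

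In Hulunbuir alone the members also differed in IRX3 and IRX5, Iroquois homeodomain factors of proximal limb and heart. IRX3 was at 26.0 CPM (20.6 to 32.4) in 43 of 214 members and at 8.05 CPM (6.60 to 9.72) in the allantois-gene cells, a log2 fold of 1.69 that was 1.28 at 5000 to 20000 UMIs. IRX5 was at 7.91 CPM in 17 members against 0.895 CPM, a log2 fold of 3.14. In Ujumqin, IRX3 had 2 UMIs in members and 0 in the allantois-gene cells, and IRX5 had 0 in both, so that no difference was detectable at this depth. IGFBP3, which binds insulin-like growth factors in the matrix, had the highest Hulunbuir fold of the genes named here, log2 4.30, from 147 UMIs held by 16 of 214 members, and a log2 fold of 0.51 in Ujumqin.

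Of the posterior genes outside the rule, HOXA11 was lower in the members of both libraries, and HOXC12 differed by less than 2-fold. HOXA11 had log2 folds of -0.89 in Hulunbuir, -0.95 at 5000 to 20000 UMIs, and -1.47 in Ujumqin. HAND2, a factor of lateral plate and heart mesoderm, was counted in 151 of 214 Hulunbuir and 16 of 31 Ujumqin members and had log2 folds of -0.24 and -0.62. Of the fixed pathway lists, 2 of the 8 measured lateral plate factors (NR2F1 and NR2F2), 2 of 8 WNT genes (FZD2 and SFRP1) and 2 of 15 matrix genes (POSTN and PTN) were called higher in both libraries, against 0.303% of all genes. Without the deepest Ujumqin member NR2F2, FZD2 and SFRP1 were left of these 6, and at 5000 to 20000 UMIs FZD2 alone, and these lists were chosen with earlier results of these data known. None of the 8 BMP, 6 IGF, 7 general mesenchyme or 5 HOX genes measured passed the limit in both.

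The PRRX1 TWIST1 cells of Hulunbuir were also laid out by the number of UMIs that they had of the 8 genes, which the rule sets at 0 for members. From 214 members to 245 cells with 1 UMI, 181 with 2 and 243 with 3 or more, POSTN went from 80.1 to 15.7, 23.5 and 2.26 CPM, PTN from 385 to 228, 177 and 152 CPM, and IRX3 from 26.0 to 9.16, 9.65 and 6.47 CPM. HOXA11 took the opposite course, from 41.8 to 66.7, 70.9 and 86.2 CPM. COL1A1 stayed between 528 and 617 CPM. PTN thus fell and HOXA11 rose at each step in Hulunbuir. In POSTN and IRX3, cells with a single UMI of the 8 genes lay nearer to the cells with more of them than to the members. Members stand at one end of these steps by definition, since the steps count genes of the rule, so the values are a description. In Ujumqin, over 31, 24, 27 and 49 cells, HOXA11 also rose, at 9.79, 20.6, 24.3 and 28.0 CPM. The order was less regular for POSTN, at 64.9, 32.7, 39.6 and 18.9 CPM, and PTN was not graded, at 225, 49.6, 128 and 74.9 CPM. POSTN in the Ujumqin members was at 32.4 CPM (20.1 to 49.6) without the deepest cell, level with the next 2 steps, and that cell also held most of their PTN UMIs. Depth moved along the same series and its part in it was not tested.

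**Figure D3:**
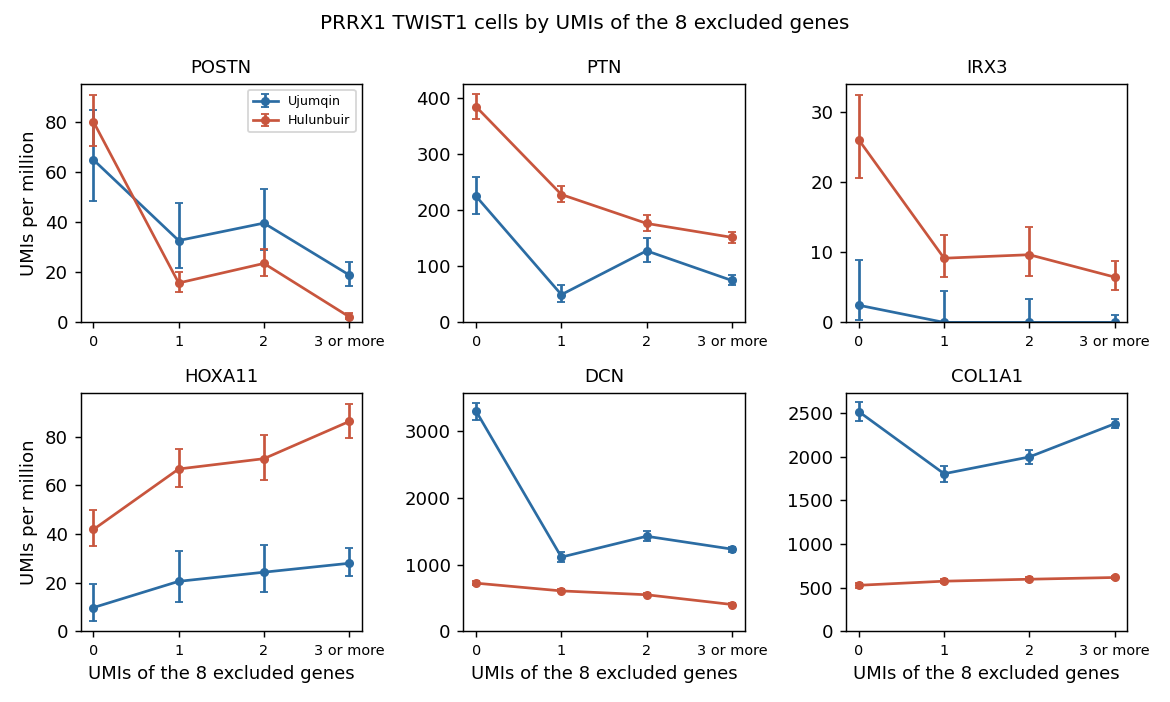
Levels (CPM) of POSTN, PTN, IRX3, HOXA11, DCN and COL1A1 in PRRX1 TWIST1 cells with 0 (the members), 1, 2 or at least 3 UMIs of the 8 excluded genes, in each library, with exact Poisson 95% intervals. In Hulunbuir, POSTN went from 80.1 CPM in members to 2.26 CPM, while HOXA11 went from 41.8 to 86.2 CPM.

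Hulunbuir members differed among themselves. They were split, after their values had been seen, by POSTN, by the caudal factors CDX2 and CDX4, and by HOXA11 or HOXC12. POSTN was found in 37 members, CDX2 or CDX4 in 32 and the third group in 90, and 75 of 214 had none of these genes. POSTN and CDX members shared 4 cells (10.8% and 12.5% of each), POSTN members and the third group shared 9 (24.3% and 10%), and CDX members and the third group shared 8 (25% and 8.89%). Any share in such a split depends on depth, and the medians were 14145, 10878.5 and 15826.5 UMIs.

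The 37 POSTN members had higher levels than the other Hulunbuir members of many genes that were higher in members than in the allantois-gene cells. IGFBP3 was at 221 CPM in them and 7.34 CPM in the 177 other members, a log2 fold of 4.91 (4.20 to 5.71). PTN was at 1102 and 215 CPM, and TNNI1 at 82.3 and 12.6 CPM. NR2F1 was at 41.1 and 3.67 CPM, NR2F2 at 53.1 and 12.2, IRX3 at 51.4 with a log2 fold of 1.36, FZD2 at 66.8 and 12.6 and SFRP1 at 75.4 and 16.3 CPM. WNT2, a signal of splanchnic mesoderm, was found in 20 of the 37 cells, at 113 CPM against 32.2. CRABP1, a retinoic acid carrier, and HOXA11 were lower in these cells, at 12.0 against 129 CPM and 18.9 against 47.3 CPM. COL1A1 hardly differed in Hulunbuir, with a log2 fold of 0.01 (-0.18 to 0.19). In Ujumqin, the POSTN members, the deepest member among them, had log2 folds over the other members of 1.42 (1.28 to 1.57) for COL1A1 and -0.30 (-0.46 to -0.14) for LUM.

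The 32 CDX members had another set of genes. CRABP1 was at 544 CPM in them and 38.1 CPM in the 182 others (log2 fold 3.84, 3.49 to 4.19), COL2A1, the collagen of cartilage and notochord sheath, at 195 and 28.9 CPM, and DUSP6, a feedback inhibitor of FGF signalling, at 219 and 26.3 CPM. HOXA6 was at 105 and 8.76 CPM, WNT5B at 56.1 and 5.33 CPM and BMP4 at 166 and 46.9 CPM. LUM and DCN, the small proteoglycans of fibrous tissue, were lower in CDX members, at 107 against 671 CPM and 278 against 793 CPM.

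The 90 members with HOXA11 or HOXC12 had more LUM and COL1A1 and less PTN and IRX3 than the members without these genes. LUM was at 748 CPM in them and 446 CPM in the 124 others, COL1A1 at 656 and 404 CPM, and TBX20, a T-box factor of heart and lateral plate, at 25.4 and 9.09 CPM. PTN was at 138 against 624 CPM, beside 171 CPM in the allantois-gene cells, IRX3 at 6.02 against 45.4 CPM and TNNI1 at 2.01 against 49.3 CPM. In Ujumqin 11 members had POSTN, 8 were in the third group, 0 had CDX2 or CDX4, and 4 cells were shared between the first 2 of these groups. With the deepest member kept in, the third group in Ujumqin had a log2 fold of 0.97 for LUM over the other members. Its log2 folds were -0.43 (-0.58 to -0.29) for COL1A1, -1.18 (-1.33 to -1.03) for DCN and -1.86 for PTN. A count of 0 in 816983 UMIs of the Ujumqin members leaves room for up to 4.52 CPM of CDX2 at the upper interval bound, against 20.8 CPM in Hulunbuir members.

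**Figure D4:**
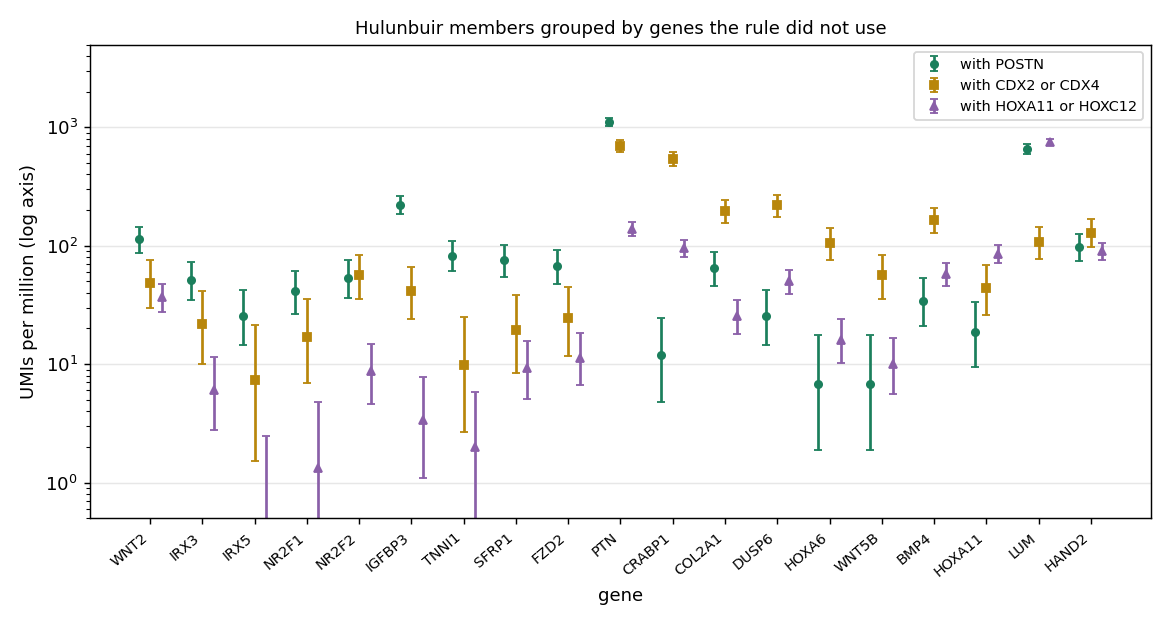
Levels (CPM, log axis) of 19 genes in Hulunbuir members with POSTN, with CDX2 or CDX4, and with HOXA11 or HOXC12, with exact Poisson 95% intervals. These splits were chosen after the data were seen, and IGFBP3 and TNNI1 were higher in the POSTN members, CRABP1 and COL2A1 in the CDX members, and PTN lowest in the members with HOXA11 or HOXC12, in which IRX5 had 0 UMIs and is drawn by its upper limit.

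Against all other kept cells, 8 genes were at least 2-fold higher in the members of both libraries, 0.243% of the 3296. They were DCN, POSTN, PTN and WNT2, and ANGPT1, CCDC68, COLEC12 and SVEP1, which were named after their values were seen, and of these DCN, POSTN and PTN had at least 200 UMIs. At 5000 to 20000 UMIs DCN, POSTN and WNT2 were still called, and without the deepest Ujumqin member DCN, POSTN, PTN, WNT2, ANGPT1 and SVEP1 were. The Hulunbuir log2 fold of PTN here was 1.06 with the Hulunbuir member of most PTN UMIs kept in. Ujumqin alone gave 459 genes higher and 48 lower and Hulunbuir alone 13 and 9. The kept cells included 5108 erythroid cells in Ujumqin and 3 in Hulunbuir, and their part in these counts was not tested.

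Between the breeds, 429 genes were at least 2-fold higher in Hulunbuir members (13.0% of 3296) and 64 in Ujumqin members (1.94%). Without the deepest Ujumqin member, 315 and 49 of these same genes were still past the limit. The 2 libraries were shifted as a whole, with a median log2 fold (Hulunbuir over Ujumqin) of 0.32 over all genes in members, 0.27 in the allantois-gene cells and 0.78 in the other kept cells. The kept cells also differed in their erythroid cells, 5108 in Ujumqin and 3 in Hulunbuir. The breed differences of the members are therefore read beside those of the allantois-gene cells. Breed and library cannot be told apart.

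Genes of fibrous matrix were higher in Ujumqin members, and in Ujumqin allantois-gene cells too. COL1A1 had a log2 fold of -2.25 (-2.35 to -2.16) in members, -1.63 without the deepest Ujumqin member, and -1.91 in the allantois-gene cells. COL1A2 had -1.95, -1.49 and -1.60, COL3A1 had -1.38, -1.26 and -1.65, and VIM had -1.45, -1.45 and -1.62. LUM had -1.42, -1.63 and -1.70. DCN had -2.19 in members, -0.91 without the deepest member, and -1.85 in members of 5000 to 20000 UMIs. Of the 15 measured matrix genes, 3 were past 2-fold in Ujumqin members (LUM, DCN and LOXL1) and 0 in Hulunbuir members, with a list median of -0.47 against 0.32 over all genes. Without the deepest Ujumqin member, 3 were past 2-fold in Ujumqin members, 2 of them the same genes as before. In Hulunbuir members 2 then were, POSTN and PTN, and the list median was -0.52 against 0.23 over all genes. Of the 7 measured general mesenchyme genes, 3 were higher in Ujumqin (COL1A2, COL3A1 and VIM) and 1, the cell adhesion gene CDH11, was higher in Hulunbuir.

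Outside the lists of mesenchyme, the largest folds towards Ujumqin were those of the galectin LGALS3 (-3.35, and -4.02 in the allantois-gene cells) and the immediate early gene FOS (-2.76 and -2.51). FOS was at 388 CPM in Ujumqin and 57.3 CPM in Hulunbuir members and is known as a rapidly induced gene. ACTA2, the smooth muscle actin gene, had -1.98 and LGALS1, another galectin, had -1.77, which was -1.12 without the deepest Ujumqin member and -0.94 at 5000 to 20000 UMIs. TSPO (-2.09), PLP2 (-1.60, and -0.97 without the deepest Ujumqin member) and DAB2 (-1.50), genes of membrane proteins and an endocytic adaptor, completed the 10 largest folds among genes with at least 200 UMIs. The apolipoprotein gene APOA1, at 332 CPM in Ujumqin members and 63.9 CPM in Hulunbuir members, had -2.38, but -1.20 at 147 CPM in Ujumqin without the deepest member, and belongs to the liver-type genes that differed between the libraries as a whole.

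IGFBP2, BMP4 and ID3 were higher in Hulunbuir members. IGFBP2, a carrier of insulin-like growth factors, was at 650 CPM (622 to 680) in Hulunbuir and 153 CPM (127 to 182) in Ujumqin members, a log2 fold of 2.09 that was 2.09 without the deepest member and 2.92 in the allantois-gene cells. IGF2 itself differed little, at 1428 and 1197 CPM, a log2 fold of 0.25. BMP4, a ligand of lateral plate and posterior mesoderm, was at 62.9 CPM in 89 Hulunbuir members and 19.6 CPM in 9 Ujumqin members (log2 fold 1.68, and 1.81 in the allantois-gene cells), and ID3, a target of BMP signalling, at 682 and 230 CPM (1.57 and 3.22). ID1, another such target, was at 1144 and 821 CPM, a log2 fold of 0.48. Of the 8 measured BMP genes, 2 were past 2-fold in Hulunbuir (BMP4 and ID3) and 0 in Ujumqin, and of 8 WNT genes 2 were (SFRP1 and SFRP2), against 13.0% of all genes. SFRP1 and SFRP2 had log2 folds of 0.99 and 0.92 without the deepest Ujumqin member, which left 0 of the 8.

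The stress and growth-arrest gene GADD45G (log2 fold 2.84), the desmosome gene DSP (2.98), the cell surface gene CD24 (2.05) and the retinoic acid carrier CRABP2 (1.77, and 0.43 at 5000 to 20000 UMIs) were also higher in Hulunbuir members. GADD45G, CD24 and CRABP2 differed in the allantois-gene cells as well, by log2 3.22, 3.98 and 2.39, whereas DSP differed there by 0.62 and stood at 10 UMIs in Ujumqin members. Of the measured cell cycle genes, 12 of 12 had a log2 fold above 0, as had 2385 of all 3296 genes, and the list median was 0.64 against 0.32 over all genes. Without the deepest Ujumqin member 10 of the 12 were above 0, all but MCM3 and MCM6. Past 2-fold were 3 of the 12, TOP2A, CCNA2 and CDK1, against 13.0% of all genes, and TOP2A had 1.53 but 0.80 at 5000 to 20000 UMIs. The histone genes H1-4 (2.50), HIST2H2AC (2.47) and H1-2 (2.21) were higher too, as were SRFBP1 (2.62), the actin-binding gene NEXN (2.10) and PAWR (2.05).

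POSTN was higher in Ujumqin among the allantois-gene cells but not among the members. It had a log2 fold of 0.30 (-0.13 to 0.76) in members, 1.30 without the deepest Ujumqin member, and -2.05 in the allantois-gene cells. PTN had 0.77, 1.59 and 1.02, all towards Hulunbuir. The difference between the 2 sets of cells was not tested, since 1 library stands for each breed.

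**Figure D5:**
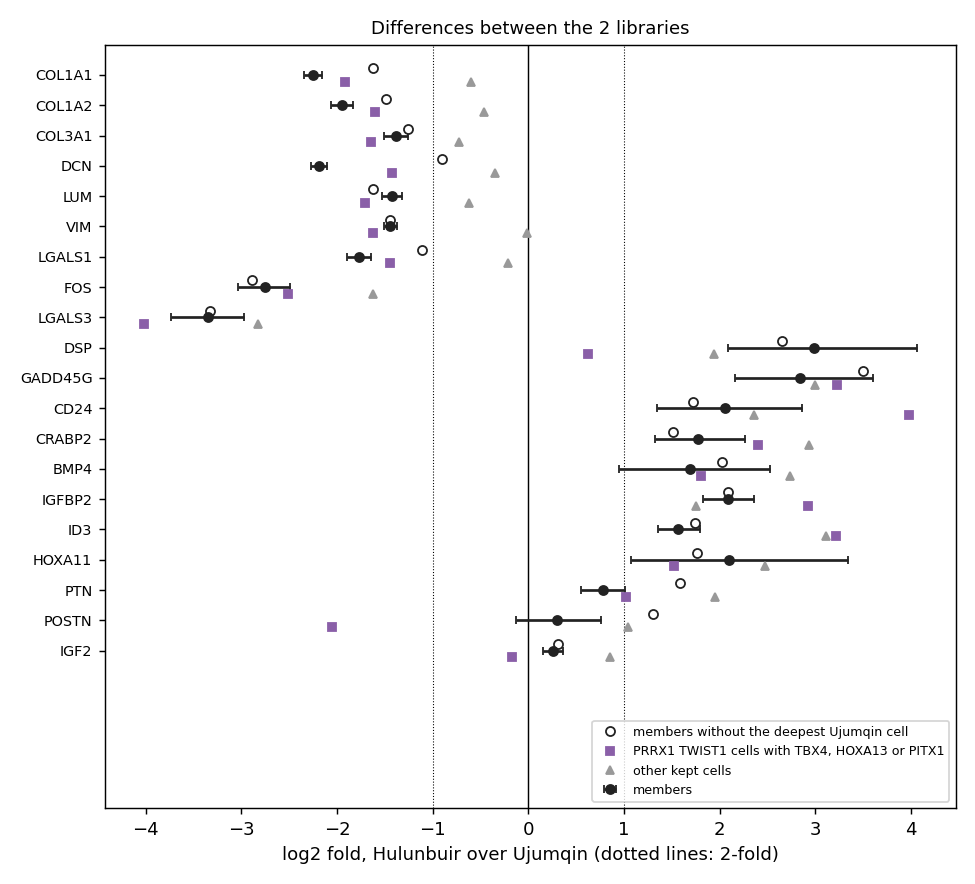
Log2 fold of Hulunbuir over Ujumqin for 20 genes in the members with exact conditional binomial 95% intervals, in members without the deepest Ujumqin cell, in the allantois-gene cells and in the other kept cells. COL1A1, VIM, LGALS3 and FOS lay below 0 and IGFBP2, BMP4 and ID3 above 0 in members and in the allantois-gene cells, and POSTN had 0.30 in members and -2.05 in the allantois-gene cells.

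HOX genes, which set position along the body axis, were higher in Hulunbuir members. All HOX genes in the files summed to 245 CPM in Hulunbuir and 91.8 CPM in Ujumqin members, and to 320 and 95.2 CPM in the allantois-gene cells. The 5 HOX genes with enough UMIs, HOXA5 (log2 fold 1.66), HOXA6 (2.15), HOXA7 (4.39), HOXA11 (2.10) and HOXC9 (1.29), were all past 2-fold, against 13.0% of all genes, but Ujumqin members held between 1 and 13 UMIs of each, and HOXC9 had 0.95 without the deepest member. These genes reached the minimum of 50 UMIs mostly through the Hulunbuir members, where they were higher. Their share past 2-fold is therefore not a result about HOX genes. In the other kept cells all 5 were past 2-fold too, and all HOX genes summed to 354 CPM in Hulunbuir and 51.9 CPM in Ujumqin. Paralog groups 10 to 13 made up 26.6% of HOX UMIs in Hulunbuir members and 24.0% in Ujumqin members, against 41.1% and 48.1% in the allantois-gene cells, a comparison in which the rule took HOXA13 out of the members. With HOXA13 left out of all cells, the allantois-gene cells were at 35.8% (34.3 to 37.3%) and 43.9% (39.3 to 48.7%), and the members at 26.6% (23.4 to 29.9%) and 24.0% (14.9 to 35.3%). The allantois-gene cells were chosen in part by HOXA13, so these shares are a description. Groups 5 to 8 made up 35.0% in Hulunbuir and 25.3% in Ujumqin members, and group 9 made up 26.8% and 34.7%.

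Members were last split by HAND1 and HAND2, the paired factors of lateral plate and heart mesoderm. At least 1 UMI of either was found in 153 of 214 Hulunbuir members and 17 of 31 Ujumqin members. The HAND members were the deeper cells, with medians of 14359 against 10571 UMIs in Hulunbuir and 26933 against 14894.5 in Ujumqin. The deepest Ujumqin member was among them, and the part of depth in this split was not tested. Of 3295 genes, 8 (0.243%) were at least 2-fold higher in HAND members of both libraries, APOA1, CEP135, EXT1, H1-10, IARS1, RTCA, SERPINE2 and UNC5C, and 3 (0.0910%) were lower, LIMCH1, SHKBP1 and TEX10. All of these but APOA1 were named after their values were seen and had under 200 UMIs. APOA1 had log2 folds of 1.32 in Hulunbuir and 3.86 in Ujumqin, or 2.75 in Ujumqin without the deepest member.

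Among the signals that the embryo's axis sends to mesenchyme, the Hedgehog pathway left few counts in these cells. Of the Hedgehog pathway, SHH, IHH and DHH had 0 UMIs in members of both breeds, the receptor and target PTCH1 had 31 UMIs in Hulunbuir and 2 in Ujumqin, and GLI1 had 4 and 1, for a summed level of the pathway of 30.0 and 19.6 CPM. The retinoic acid enzyme gene ALDH1A2 had 8 and 1 UMIs. The 15 genes of the retinoic acid list together were at 875 CPM in Hulunbuir members (213 of 214 cells) and 778 CPM in Ujumqin members (31 of 31 cells). In the other kept cells they were at 1233 and 851 CPM. None of the 13 Hedgehog genes in the files reached the minimum of 50 UMIs, so none was among the genes compared. PTCH1 was higher in Hulunbuir members at these counts, but rested on 2 UMIs in Ujumqin members. For GLI1 and ALDH1A2 no difference between the breeds was detectable.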

How the data were processed

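Cells of pooled E16 embryos of Ujumqin and of Hulunbuir sheep were measured with 10x Genomics 3' libraries, 1 per breed. The authors deposited unnormalised UMI counts per gene and barcode, made with Cell Ranger (5.0.0 in the file headers, 3.1.0 in the submitters' processing notes) from reads aligned to the Rambouillet v1.0 sheep assembly. From these counts, barcodes with at least 200 genes and under 10% of UMIs on MT- genes were kept, the members were chosen by the rule given above, and UMIs were summed over each group of cells and divided by all UMIs of the group. Of a symbol given to several features (83 symbols) the first feature was taken. Columns of values that could not be mapped to a sample numbered 0. Where a group had 0 UMIs of a gene, its fold was taken against 3 counts. Doublets were not called or removed. Leaving out the 10% of cells with most UMIs in each group was 1 of the alternatives, but it does not identify doublets.

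The members and all gene lists were chosen with earlier results of these data known. The named genes were those of the rule, those of 30 fixed lists (444 of 469 genes in the files), and by rule the 10 genes of largest fold between the breeds in each direction and the 15 of each contrast of cells, with at least 200 UMIs over the members (and 20 CPM between the breeds). The splits by POSTN, by CDX2 or CDX4 and by HOXA11 or HOXC12, and the removal of the deepest Ujumqin member, were chosen once the data had been seen. Before cells with a UMI were counted, each was thinned to 1000 UMIs. Member depth ran from 772 to 169758 UMIs in Ujumqin and from 699 to 43834 in Hulunbuir. The embryos were pooled, so no test was made. The alternatives were a minimum of 500 genes, no cell filter, at least 2 UMIs of both factors, no condition on the 8 genes, 5000 to 20000 UMIs, the CPM averaged over cells, library totals that left out 85 genes of mitochondria, ribosomal proteins and haemoglobin, at least 200 UMIs per gene, and thinning to 500 or 2000 UMIs. Steps were tested on simulated data. The tools were numpy 2.4.6, pandas 2.3.3 and scipy 1.17.1 under Python 3.11.15, with matplotlib 3.10.9 for plots.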

Additional observations from a re-analysis of the deposited data

How the results depend on the processing

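The share of members among kept cells depended on the rule more than on the cell filter. At least 2 UMIs of both factors left 0.00687% of Ujumqin cells (1 cell) and 0.313% of Hulunbuir cells, no condition on the 8 genes gave 0.900% and 9.21%, and at 5000 to 20000 UMIs the Hulunbuir share was 2.94%. Genes 2-fold higher in Hulunbuir members (429) were 148 with 2 UMIs, 883 without the 8-gene condition and 91 with at least 200 UMIs, and those higher in Ujumqin members (64) were 149 and 16 under the last 2 of these. The 10 genes higher in members than in the allantois-gene cells of both libraries were 0 with 2 UMIs, 5 by the mean of the cells' CPM, 3 without the 10% of cells with most UMIs, 2 at 5000 to 20000 UMIs, 2 with at least 200 UMIs and 4 without the deepest Ujumqin member, and the 0 lower genes were 1 by the mean of the cells' CPM. Against other kept cells, the 8 genes were 3 with at least 200 UMIs and 6 without the deepest Ujumqin member, and of the 8 called at 5000 to 20000 UMIs 3 were the same genes (DCN, POSTN and WNT2). For the HAND split, the 8 higher and 3 lower genes were 24 and 6 by the mean of the cells' CPM, 2 and 0 at 5000 to 20000 UMIs and 1 and 0 with at least 200 UMIs, and 2 UMIs of both factors gave no value because 1 side held no Ujumqin cell. Summed HOX levels in Ujumqin members were 33.8 CPM with 2 UMIs, 161 by the mean of the cells' CPM, 130 without technical genes and 120 without the 10% of cells with most UMIs. In Hulunbuir members they were 301 CPM without the 8-gene condition, 305 by the mean of the cells' CPM, 344 without technical genes and 276 at 5000 to 20000 UMIs. Thinned shares with COL1A1 in Hulunbuir were 17.3% at 500 and 46.2% at 2000 UMIs. Of 221 values of the breed fold of 25 genes under these settings, 132 moved by less than counting error, 89 moved by more and 0 reversed a fold past the limit. The 17 genes past 2-fold in the main setting had 150 of these values, of which 138 were still past 2-fold the same way. DCN was at -0.91 without the deepest Ujumqin member and -0.88 without the 10% of cells with most UMIs, and at 5000 to 20000 UMIs CRABP2 was at 0.43, IRX3 at 0.34, TOP2A at 0.80 and LGALS1 at -0.94. Causes were not tested, except that a higher UMI minimum compares fewer genes. No paired analysis was possible because each breed had 1 pooled library, and for the same reason no replicate could be left out. Precision was limited by the 31 Ujumqin members.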
